A study of Mus musculus with 4 samples.

Results

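The Polo-like kinases are serine/threonine kinases that carry polo-box domains behind the kinase domain, and Plk1, Plk2, Plk3 and Plk4 were followed here in mouse 3T3L1 cells. The members are the genes with these symbols, a rule that uses no measured value though it was written with earlier results of these data known, and are 4 of the 16709 gene symbols in the authors' table. RNA sequencing compared 3T3L1 preadipocytes, an established fibroblast-like line that can be turned into adipocytes, after 24 h in 25 µM Nutlin-3a or in an equivalent amount of its vehicle DMSO. The 4 libraries were biological duplicates of both treatments, and the cells were grown in DMEM with FBS and carried no labelled genetic change. Nutlin-3a fills the p53-binding pocket of MDM2, a ubiquitin ligase, and so releases p53.

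The members have different roles. Plk1 drives entry into mitosis, centrosome maturation, spindle assembly and cytokinesis, and Plk4 starts the duplication of centrioles, so both are active in proliferating cells. Plk2 and Plk3 were first described as genes induced by serum and by fibroblast growth factor; they act in stress responses, and both have been linked to p53. Released p53 raises the transcription of its direct targets, while many mitotic genes, Plk1 among them, are lowered indirectly through the inhibitor p21 and repressor complexes that bind the cell cycle genes homology region (CHR), a short promoter element. The question that the design puts to this family is whether the p53-linked pair and the mitotic pair differ in direction once p53 is released.

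The promoters are shown first because the results turn on this contrast between both pairs. The 250 bases before the annotated start of each gene are printed from RefSeq (GRCm38.p6), on the gene's own strand. Capitals mark matches to any of the motifs searched: CHR (TTTGAA), the CCAAT box (CCAAT), the cAMP response element or CRE (TGACGTCA), its half-site (TGACG), the TATA box (TATAAA), the GC box (GGGCGG) and the p53 half-site consensus, all on both strands. The half-site overlaps every CRE by construction.
Plk1, chr7:122159185-122159434, plus strand: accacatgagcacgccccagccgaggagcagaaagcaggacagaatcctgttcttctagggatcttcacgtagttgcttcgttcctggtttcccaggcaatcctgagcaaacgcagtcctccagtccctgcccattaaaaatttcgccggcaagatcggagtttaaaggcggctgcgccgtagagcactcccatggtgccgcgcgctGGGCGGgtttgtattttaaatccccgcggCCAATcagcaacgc
Plk4, chr3:40799701-40799950, plus strand: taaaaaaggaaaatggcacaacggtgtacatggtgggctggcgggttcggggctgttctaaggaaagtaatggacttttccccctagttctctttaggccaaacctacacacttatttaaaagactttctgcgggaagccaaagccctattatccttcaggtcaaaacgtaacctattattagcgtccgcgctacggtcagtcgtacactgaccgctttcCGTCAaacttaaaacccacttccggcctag
Plk2, chr13:110394794-110395043, plus strand: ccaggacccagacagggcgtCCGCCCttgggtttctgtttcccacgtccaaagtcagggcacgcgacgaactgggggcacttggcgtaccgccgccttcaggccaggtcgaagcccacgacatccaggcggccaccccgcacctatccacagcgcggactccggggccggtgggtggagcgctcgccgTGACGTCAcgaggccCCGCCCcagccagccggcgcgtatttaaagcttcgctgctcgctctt
Plk3, chr4:117133964-117134213, minus strand: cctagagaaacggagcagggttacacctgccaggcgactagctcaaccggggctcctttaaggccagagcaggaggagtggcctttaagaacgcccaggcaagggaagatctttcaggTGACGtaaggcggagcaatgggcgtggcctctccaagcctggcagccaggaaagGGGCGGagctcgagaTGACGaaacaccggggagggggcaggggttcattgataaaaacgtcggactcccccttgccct
The CHR letters of Plk1 lie just behind the start, at bases 31 to 36, and are shown with their context.
Plk1, chr7:122159453-122159482, plus strand: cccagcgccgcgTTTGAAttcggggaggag

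Each member had a different set of motif letters in the window from 250 bases before to 50 bases after the start. Plk1 alone among the 4 held the CHR letters, and it also held a CCAAT box at bases -14 to -10 and a GC box at bases -43 to -38. The CHR letters occurred in 18.1% of 27025 RefSeq promoters of this length and in 11.5% of the 7962 that belong to genes compared here, and the CCAAT box in 37.9% and 39.5%. Plk2 held a complete CRE at bases -62 to -55, which 1.88% of all promoters and 3.43% of those of compared genes did. It also held GC boxes on the other strand, at bases -230 to -225 and -47 to -42, and a further half-site behind the start, at bases 22 to 26. Plk3 held 2 copies of the CRE half-site, at bases -132 to -128 and -63 to -59, and a GC box at bases -78 to -73. Plk4 held a single CRE half-site, read on the other strand, at bases -30 to -26, and no GC box. The half-site occurred in 21.02% of all promoters and 34.1% of those of compared genes. The GC box occurred in 35.9% and 67.5%, so among compared genes Plk4 is in the minority that lacks it. No member held the TATA box letters or the p53 half-site consensus in this window, which were uncommon among compared genes too. The TATA letters occurred in 14.2% of all promoters and 6.29% of those of compared genes, and the p53 consensus in 8.37% and 6.64%. Such matches describe letters in these windows and are not binding sites. The 250 bases before the start were 68.4% G or C in Plk2, 60.0% in Plk3, 56.4% in Plk1 and 47.2% in Plk4.

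The authors gave 1 FPKM value (fragments mapped to a transcript, scaled to its length in kilobases and to the library's mapped fragments) for each transcript and group and none per library, so no value below carries a replicate error and no test was possible. Transcripts were summed per gene symbol. Folds are plain ratios of FPKM, and log2 ratios are of FPKM + 1, Nutlin-3a over DMSO, which draws the ratios of weak genes towards 0. A gene was called higher or lower at 2-fold or more on the log2 scale of FPKM + 1, and every count of genes past the limit uses this scale, so a weak gene with a plain fold over 2 can lie inside it. In bulk RNA, more cells in a cell-cycle phase and more RNA per cell cannot be told apart. Of 13 preadipocyte and fibroblast markers, 11 were above the level minimum, with Vim, an intermediate filament gene, at 1181 FPKM with Nutlin-3a and 3169 FPKM with DMSO, while Cd34 and Lum were below it. These markers summed to 4619 FPKM with Nutlin-3a and 12968 FPKM with DMSO, and 8 of the 11 were at least 2-fold lower in Nutlin-3a. Vim and S100a4 (2250 against 7580 FPKM) made up most of these sums. The preadipocyte gene Dlk1 was the 1 of the 11 that went the other way, with 623 against 513 FPKM. Whether the lower markers have a part in the results below was not tested. The 6 mature adipocyte markers summed to 33.8 FPKM with Nutlin-3a and 96.6 FPKM with DMSO. Both of those compared, the fatty acid carrier gene Fabp4 and the lipase gene Lpl, were lower past the limit and made up most of these sums. Adipoq, Plin1, Lep and Cidec were under the level minimum and went the other way, with Adipoq at 0.840 FPKM with Nutlin-3a and 0.0409 FPKM with DMSO. The part of these markers in the results was not tested either. Markers of leukocytes, epithelium, endothelium and skeletal muscle summed to between 0 and 7.63 FPKM per list and group, with most of the highest sum in Cd68, a lysosomal protein gene (6.52 FPKM).

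Plk2 was higher in Nutlin-3a and was the only member past 2-fold on the log2 scale of FPKM + 1. Plk3 was higher but inside that limit (log2 ratio 0.79, plain fold 2.02), Plk1 was modestly lower and Plk4 was nearly level. Past the 2-fold limit lay 6.62% of the 10331 genes compared on the higher side and 6.14% on the lower side, so 1 higher and no lower gene among 4 members is to be read against those shares. A gene was compared when its mean FPKM over both groups was at least 1 and it was above 0 in each group, which held for all 4 members. The median log2 ratio of the genes compared was 0.07, with quartiles of -0.33 and 0.44.

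Plk2, the serum-inducible kinase, had 58.8 FPKM with Nutlin-3a and 19.2 FPKM with DMSO. This was a 3.07-fold higher level and a log2 ratio of 1.57, and 2.03% of the genes compared had a higher ratio. The gene's rank by FPKM moved from 3280 in DMSO to 1393 in Nutlin-3a among the 16709 symbols. The table lists 1 transcript of Plk2, on chromosome 13 from 110395044 to 110400843 (mm10), a span that differs from the RefSeq gene by 1 base at the end. GENCODE M21 gives its longest coding transcript 14 exons. The nearest genes compared in the table were far off: Depdc1b lay 2005 kb away with a log2 ratio of 0.02, and Gpbp1 lay 1025 kb away on the other side with 0.36.

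Plk3, a kinase of stress responses, was much weaker, with 4.98 FPKM with Nutlin-3a and 2.47 FPKM with DMSO. The plain fold was 2.02, while the log2 ratio of 0.79 stayed inside the limit, and 11.2% of the genes compared had a higher ratio. After a correction for GC content the log2 ratio was 1.05, past the limit. The listed span of Plk3, on chromosome 4 from 117126813 to 117133952, reaches 1842 bases past the gene's annotated end. Tctex1d4, a dynein light chain gene, is listed with the same span. In GENCODE M21 it lies on the opposite strand and overlaps the end of Plk3 by 84 bases. The span may thus be that of a joint locus and not of the Plk3 transcript. The level of Plk3 stays uncertain, because how reads of both genes were separated is not given. Tctex1d4 had 0.524 FPKM with Nutlin-3a and 0.714 FPKM with DMSO, a ratio of the other sign from that of Plk3. Whether strand was used in quantification is not given in the sources used here. Btbd19, a BTB domain gene, lay 1.09 kb from the listed span of Plk3 and farther from its annotated end, with Tctex1d4 between them. Btbd19 had 10.9 against 5.28 FPKM and a log2 ratio of 0.92, close to that of Plk3.

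Plk1, the main mitotic member, had 17.8 FPKM with Nutlin-3a and 25.5 FPKM with DMSO. It was 1.43-fold lower, with a log2 ratio of -0.49, and 18.2% of the genes compared had a lower ratio still. The difference lay within the 2-fold limit, and without replicates its size cannot be set against error. Its listed transcript, on chromosome 7 from 122159437 to 122169875, corresponds to a gene whose longest coding transcript has 10 exons. Dctn5, a dynactin subunit gene 10.4 kb away, had 34.5 against 34.7 FPKM, so the neighbouring gene had nearly equal values in both groups.

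Plk4, the centriole duplication kinase, had 3.09 FPKM with Nutlin-3a and 3.02 FPKM with DMSO when its 4 listed transcripts were summed, a log2 ratio of 0.02. The sum hides listed transcripts with opposite differences, at levels of at most 1.98 FPKM. How reads were divided among transcripts that share a span is not given, and its part in these differences was not tested. In the order of the table, the first transcript had 0.159 FPKM with Nutlin-3a and 1.98 FPKM with DMSO, a log2 ratio of -1.36. The second had 1.64 FPKM with Nutlin-3a and 0.0186 FPKM with DMSO, a log2 ratio of 1.37. Each of these was thus close to 0 in the group where the other was high. The third was near 0 in both groups, with 0.0833 and 0.0350 FPKM. The fourth was similar in both, with 1.21 and 0.990 FPKM. The first transcript thus held 65.5% of the Plk4 sum in DMSO and 5.14% in Nutlin-3a, whereas the second held 0.614% and 53.04%. All 4 carry the same listed span, on chromosome 3 from 40799951 to 40816883, and the table's accessions do not name Plk4 transcripts, so which annotated isoforms they are is not given. GENCODE M21 lists 10 transcripts of Plk4, 5 of them protein-coding.

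**Figure D1:**
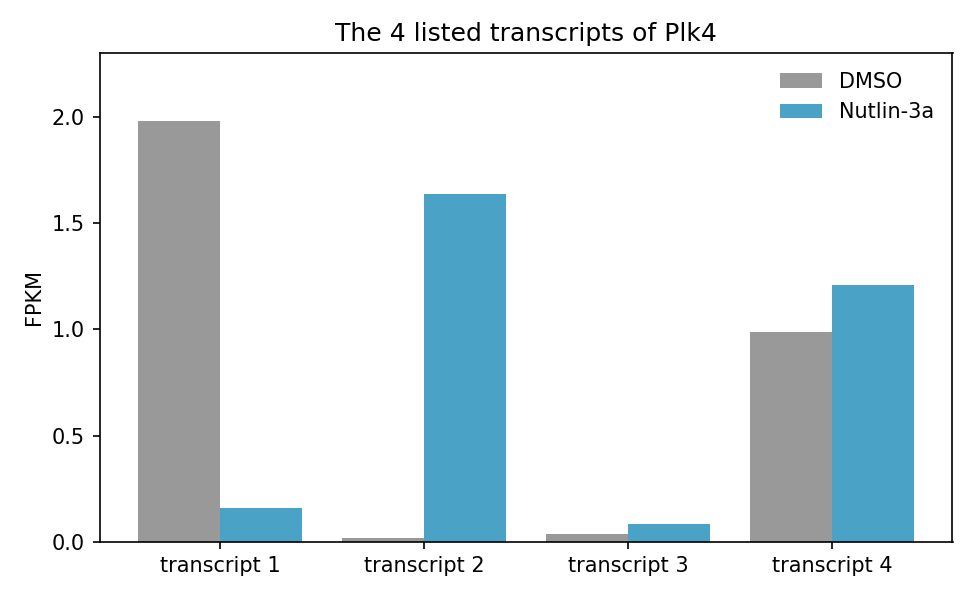
FPKM of the 4 listed transcripts of Plk4 in DMSO (grey) and Nutlin-3a (blue), 1 value per group. Transcript 1 is at 1.98 FPKM in DMSO and transcript 2 at 1.64 FPKM in Nutlin-3a, each near 0 in the other group, while transcript 4 is close to 1 FPKM in both.

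Opposite transcript differences were uncommon among genes but not particular to Plk4. Of 3102 compared genes with at least 2 listed transcripts, 138 (4.45%) had a transcript at least 2-fold higher and another at least 2-fold lower, and 120 of these genes had a sum within 2-fold. Among the 394 genes with 4 listed transcripts, as Plk4 has, the count was 36 (9.14%). Neither share was matched for level. Plk1, Plk2 and Plk3 were each listed with 1 transcript, so no such exchange could be seen in them.

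The order of the levels changed between the groups. FPKM is scaled to transcript length, which allows genes to be set beside each other. The place of Plk3 is uncertain, because its listed span is shared with Tctex1d4 and how reads of both genes were separated is not given. In DMSO Plk1 was the most abundant, at 1.33 times the level of Plk2, which was 6.33 times that of Plk4, and Plk4 was at 1.23 times the level of Plk3. In Nutlin-3a Plk2 was first, at 3.30 times the level of Plk1, followed by Plk3 and then Plk4, with Plk3 at 1.61 times the level of Plk4. Both exchanges of order, Plk1 with Plk2 and Plk4 with Plk3, set a p53-linked member above a mitotic one. With no spread between libraries given, whether neighbours as close as Plk4 and Plk3 in DMSO, or Plk1 and Plk2 there, differ cannot be said. The 4 genes summed to 84.6 FPKM with Nutlin-3a and 50.2 FPKM with DMSO. Plk2 made up 69.4% of that sum in Nutlin-3a and 38.2% in DMSO, and Plk1 made up 21.04% and 50.9%. Plk3 had 5.88% and 4.92%, and Plk4 had 3.65% and 6.03%.

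**Figure D2:**
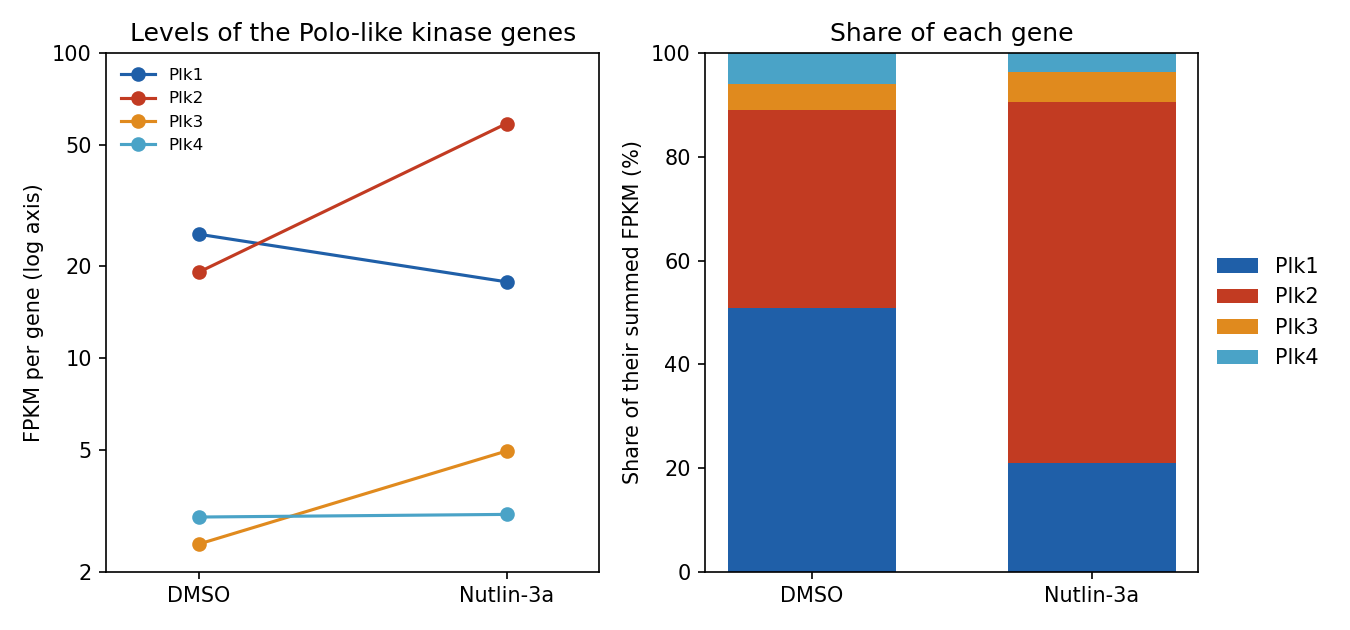
Left, FPKM (log axis) of each Polo-like kinase gene in DMSO and Nutlin-3a, 1 point per group, joined per gene. Right, the share of each gene in their summed FPKM in percent; Plk2 goes from 38.2% in DMSO to 69.4% in Nutlin-3a and Plk1 from 50.9% to 21.04%.

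Set against each other, the p53-linked pair and the mitotic pair differed in the direction of their means and sums. Plk4 by itself was nearly level (log2 ratio 0.02). Plk2 and Plk3 together had 63.7 FPKM with Nutlin-3a and 21.6 FPKM with DMSO, with a mean log2 ratio of 1.18. Plk1 and Plk4 together had 20.9 FPKM and 28.5 FPKM, with a mean log2 ratio of -0.24. The means differed by 1.41 on the log2 scale, between 1.11 and 1.56 under the alternatives tried. Members are not replicates, and the pairs are uneven inside. Plk2 carries most of the first, and the lower values of the second come from Plk1 alone. The sides of the calls also differed with level. At least 2-fold higher were 8.51% of genes with a mean of 1 to 5 FPKM, the range of Plk3 and Plk4, were at least 2-fold higher, compared with 5.16% of genes between 20 and 100 FPKM, the range of Plk1 and Plk2. At least 2-fold lower were 4.88% and 7.31% of these classes, the other way round.

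**Figure D3:**
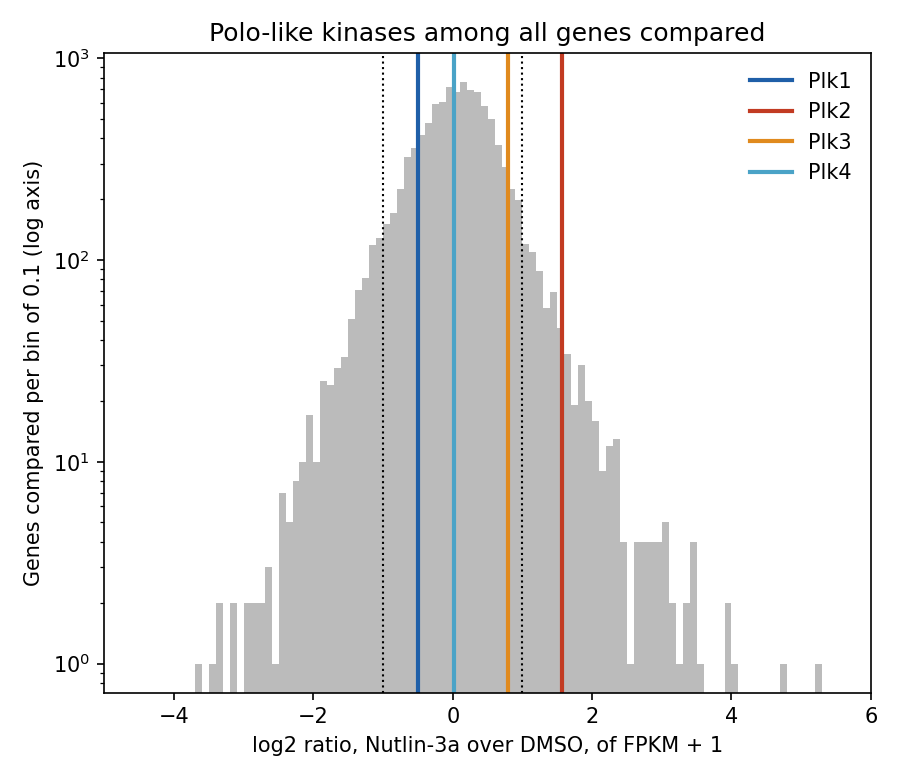
Log2 ratios (Nutlin-3a over DMSO, FPKM + 1) of the 10331 genes compared, as gene counts per bin on a log axis, with coloured lines at the 4 Polo-like kinases and dotted lines at the 2-fold limits. Plk2 (1.57) lies past the upper limit, Plk3 (0.79), Plk4 (0.02) and Plk1 (-0.49) between the limits.

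Plk2 lay in the middle of a list of 37 p53 targets, of which 34 could be compared. Of these, 25 were at least 2-fold higher and 1 at least 2-fold lower, against shares of 6.62% and 6.14% over all genes compared. Their median log2 ratio was 1.59, against 0.07 over all genes compared. The list was chosen with earlier results of these data known, so its counts and median only describe it. Of the 34, 17 had a higher ratio than Plk2 and 26 had a higher ratio than Plk3. The ratio of Plk2 was close to those of Rps27l, a ribosomal protein-like gene (1.54), and Fas, the death receptor gene (1.498). It was well under those of Trp53inp1, a p53-induced stress protein gene (3.44), and Cdkn1a, which encodes p21 (3.42). Dram1, a lysosomal membrane protein gene, was the member lower by the limit (-1.22), and Gadd45a, a stress-response gene, had 62.0 against 62.1 FPKM. The other 3 members were Mdm2, listed at 773 FPKM in DMSO and at 0 in Nutlin-3a and so given no fold and no place in these counts, and Perp and Trp53i11, which were under the level minimum.

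Plk2 and Plk3 were also described in terms of early response genes, the class in which they were discovered. Past the limit were 5 of 27 genes, all on the higher side, with a median log2 ratio of 0.41; over all genes compared the higher side held 6.62%. These were the AP-1 genes Fos (7.29 against 1.96 FPKM) and Junb (110 against 50.5 FPKM), the stress gene Gadd45b (34.7 against 12.5 FPKM), the transcription factor gene Atf3 (2.53 against 0.363 FPKM) and Ier5 (33.7 against 15.9 FPKM). On the log2 scale of FPKM + 1, all 27 had a lower ratio than Plk2, and 10 had a higher ratio than Plk3. By plain fold, however, the weak genes Atf3 (6.975) and Fos (3.72) exceeded Plk2 (3.07). Myc, a growth-promoting factor gene, had 11.4 against 13.9 FPKM and Jun had 23.2 against 20.02 FPKM.

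Plk1 lay below most genes of its own network. Of 39 genes of mitotic entry, spindle checkpoint and cytokinesis, all compared, 5 lay past the limit, all on the lower side, which held 6.14% of all genes compared, and the median log2 ratio was -0.09. Of the 39, 11 had a lower ratio than Plk1. Those past the limit were Cdc25b, a phosphatase that activates cyclin-dependent kinase (8.05 against 22.1 FPKM), the cyclin genes Ccnb2 (21.7 against 50.7 FPKM) and Ccna2, the cytokinesis regulator Racgap1 and the transcription factor Foxm1. Ccna2 lay nearest to the limit of these (log2 ratio -1.05). Among direct partners, Aurka, the kinase that phosphorylates Plk1 in its activation loop, had 26.2 against 21.5 FPKM, and Bora, the cofactor of that step, had 2.59 against 2.04 FPKM. Fbxo5, an inhibitor of the anaphase-promoting complex that Plk1 marks for destruction, had 4.15 against 7.64 FPKM, and Wee1, a kinase that Plk1 helps to remove, had 5.55 against 4.72 FPKM. The activators of Plk1 and Plk1 itself therefore had ratios of opposite sign, all within 2-fold.

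The centriole genes around Plk4 were mostly level as well. Of 20 compared, 1 lay past the limit on the higher side and none on the lower side, a share near the 6.62% and 6.14% of all genes, and the median log2 ratio was 0.13. The gene past the limit was Ccp110, which caps centrioles (4.78 against 1.85 FPKM, log2 ratio 1.02). Cep152, a scaffold that recruits Plk4, had 3.10 against 1.52 FPKM, a plain fold of 2.03 inside the limit, and Cep63, its partner, had 16.4 against 13.5 FPKM. Stil, the substrate and activator of Plk4, was under the level minimum with 1.05 against 0.885 FPKM, and Sass6, the cartwheel protein gene, had 1.303 against 0.736 FPKM. Btrc, whose product helps degrade Plk4, had 4.48 against 5.03 FPKM.

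The other kinases of mitosis and the centrosome gave no member past the limit. None of 22 lay past it on the log2 scale, to be read against 6.62% of all genes compared on the higher side and 6.14% on the lower. Their median log2 ratio was -0.05. They ran from -0.88 in Aurkb, the kinase of the chromosomal passenger complex, to 0.95 in Nek7, a weak gene whose plain fold was 2.75 (3.13 against 1.14 FPKM). All 22 lay below Plk2, and 20 of 22 lay above Plk1, the exceptions being Aurkb and the checkpoint kinase Bub1b (-0.83). Of 11 reported substrates of Plk2 and Plk3 that could be compared, most of them known from human cells, none passed the limit. This short list is to be read against the same shares. Chek2, a checkpoint kinase, had 3.62 against 1.55 FPKM, and Trp53 had 63.1 against 54.5 FPKM.

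**Figure D4:**
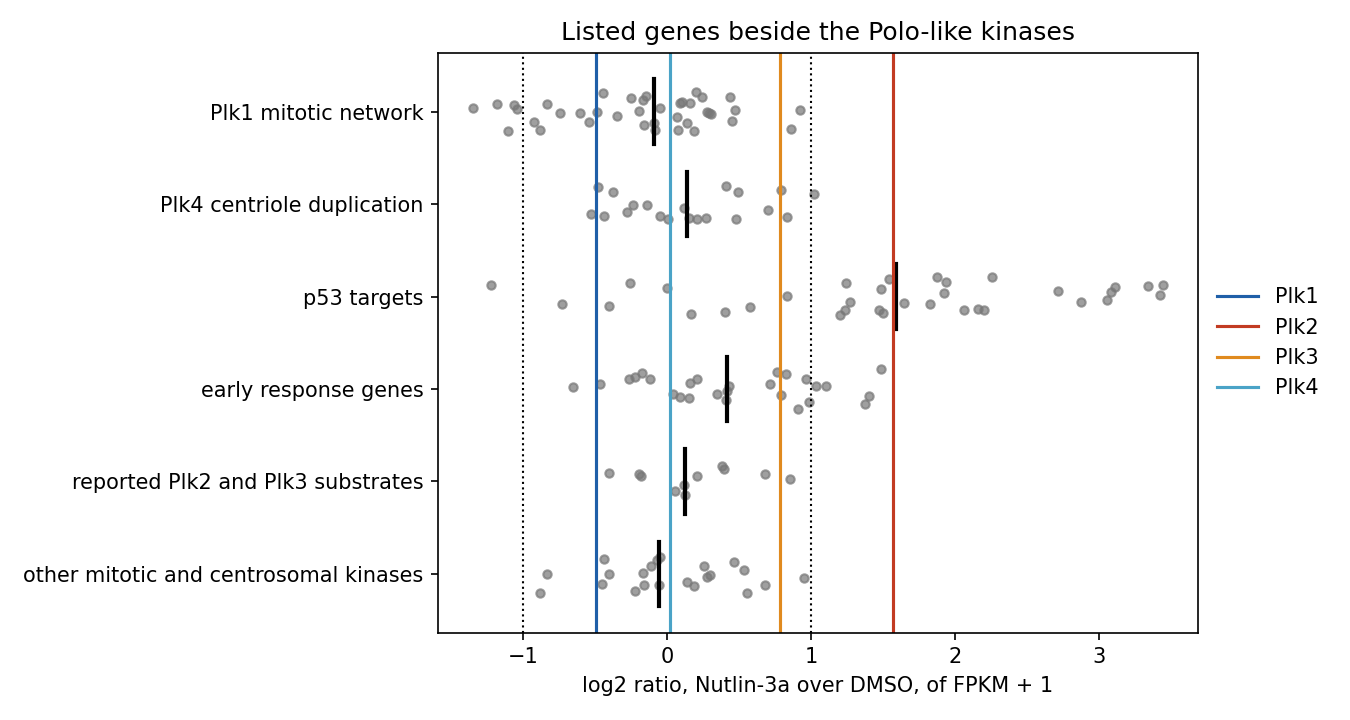
Log2 ratios (Nutlin-3a over DMSO, FPKM + 1) of the compared genes in the 6 lists, 1 grey point per gene, with black bars at list medians, coloured lines at the Polo-like kinases and dotted lines at the 2-fold limits. Plk2 (1.57) runs beside the p53 target median (1.59), and Plk1 (-0.49) lies left of the mitotic median (-0.09). The lists were chosen with earlier results of these data known.

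The genes with levels most like each member were found by distance in the plane of log2(FPKM + 1) in both groups, which rests on only 2 values per gene. For Plk2 these were Scarb2 (56.1 against 20.7 FPKM), Mecr (57.0 against 21.4 FPKM) and Fbxw9 (59.1 against 21.5 FPKM), at distances from 0.122 to 0.160. Plk1 had closer ones, Asl, Mospd3 and Cog4, within 0.0304. Those of Plk3 were Mettl18, Gpkow and Uvrag, within 0.0306, and those of Plk4 were Pomgnt2, Pcca and Cfap97, within 0.0258. Plk2 was thus in a sparser stretch of the plane than the other members. Plk5, a further gene of the family that is not among the members, had 0.502 FPKM with Nutlin-3a. It is listed at 0 in DMSO, so no fold is given. Its listed span, from 79697305 to 80369637 on chromosome 10, takes in neighbouring genes.

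**Figure D5:**
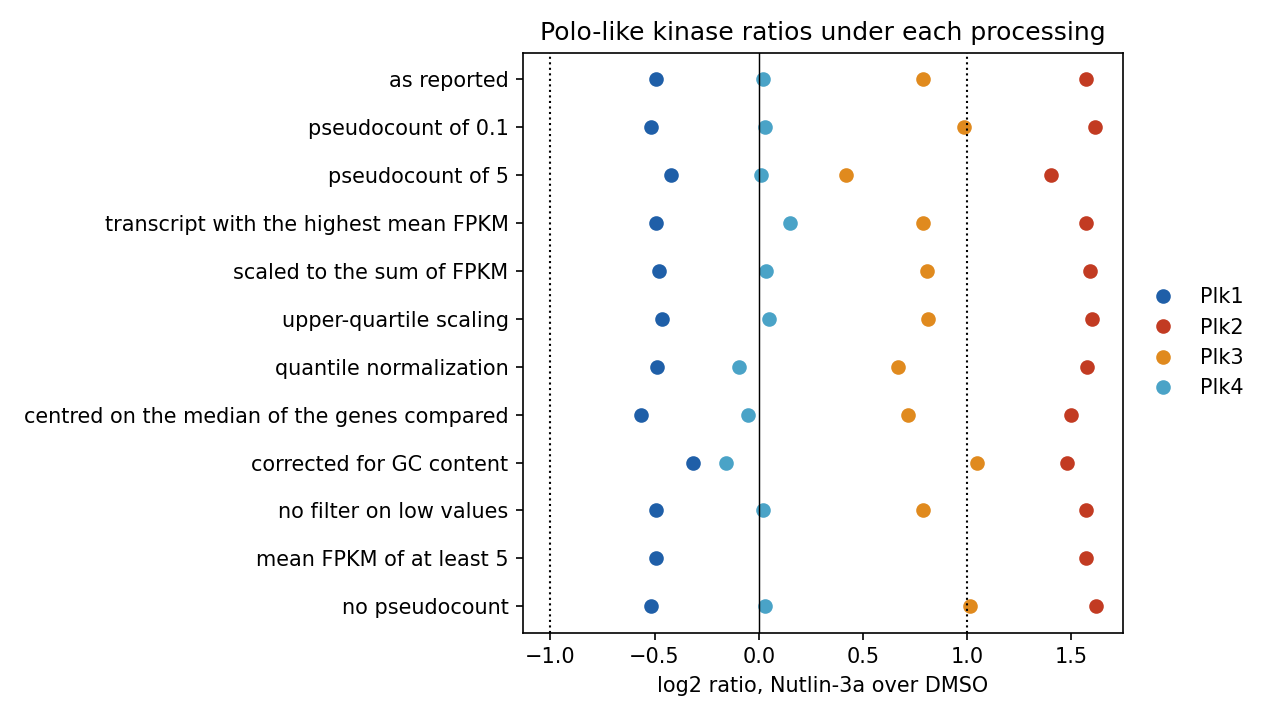
Log2 ratios of the 4 Polo-like kinases (Nutlin-3a over DMSO) under each way of processing, 1 point per gene and setting, with dotted lines at the 2-fold limits. Plk2 stays between 1.40 and 1.62 and Plk1 between -0.57 and -0.32, Plk3 crosses the upper limit with a correction for GC content and with no pseudocount, and Plk4 lies on both sides of 0; Plk3 and Plk4 have no value with a mean FPKM of at least 5.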

How the data were processed

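Per the labels' protocols, total RNA was extracted with TRIzol and made into libraries by Illumina protocols. The submitters' processing notes name TopHat2 2.0.11 and mm10. How transcripts were quantified, with which annotation, whether strand was used and how replicates were combined is not given in the sources used here. Deposited was a table that holds FPKM per transcript and group for 24746 transcripts, per the file headers, where NUT stands for Nutlin-3a and DSM was taken for the only other group, DMSO. Another pair of deposited columns holds log2 of the same FPKM, with deviations of at most 0.00714, and was not used. A further 4294 lines held only tabs. The depth of the libraries is unknown.

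Transcript FPKM was summed per symbol. Listed starts count from 0, and printed ones from 1. The pseudocount was 1 FPKM, the minimum mean 1 FPKM and the limit 2-fold. The planned limma fit, replicate block and omission of replicates could not be run on group values. Members and the 6 lists were chosen with earlier results of these data known. Genes were named by rule: all members; the 3 nearest in level; the nearest compared gene on either side, of which some are not reported here; per list up to 4 past the limit in each direction; and up to 3 direct partners. A few listed genes with ratios near those of Plk2, Plk3 and Plk1, or at a list's extremes, and the fifth gene past the limit in a list, were named after their values were seen. Annotation came from GENCODE M21 and promoters from RefSeq, where 1 promoter per symbol entered the shares and all 4 members matched. A GC content could be given to 96.2% of compared genes, and ratios were corrected for it in 20 classes. The calling code was tested on simulated data with known folds. Python 3.11.15 and pandas 2.3.3 were used.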

Additional observations from a re-analysis of the deposited data

How the results depend on the processing

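Plk1 and Plk2 kept their direction and their side of the 2-fold limit under the 8 alternatives that moved their values, and so did the difference between both pairs under the 8 that moved it; the other settings, such as the filters, cannot change these values. Plk3 passed the limit with a correction for GC content (1.05) and with no pseudocount (1.01), the latter chosen after seeing the data, and ran down to 0.42 with a pseudocount of 5. Plk4 changed sign near 0: it was -0.094 after quantile normalization, -0.0496 when centred on the median of the genes compared and -0.157 after the correction for GC content. Of the genes compared, 249 were higher and 291 lower with a pseudocount of 5, in place of 684 and 634. At the stricter minimum mean of 5 FPKM, which leaves fewer genes to compare, 391 were higher and 466 lower. With no pseudocount 1039 were higher and 883 lower. The minimum of 5 FPKM left no value for Plk3, Plk4 or the difference between pairs. The cause of these shifts was not tested. No paired analysis was possible because the table holds 1 value per group; for the same reason no replicate could be left out. Depth is unknown, so no counting error can be given.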
